A study of Saccharomyces cerevisiae with 16 samples.

Results

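Ammonium was set against valine as the nitrogen source given to nitrogen-starved wine yeast, at the same amount of added nitrogen. The comparison held 6 of the 15 samples of the series, 3 with ammonium and 3 with valine, read on 7 of its 16 arrays. The samples were taken by their labels alone: ammonium 1, 2 and 3, and valine 1, 2 and 3. Ammonium 3 had been hybridised to 2 arrays, which were averaged into 1 sample. A further sample, whose title and description name different supplements, was put in neither group.

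All cells were EC1118, a diploid Saccharomyces cerevisiae strain sold for winemaking. They were grown in a continuous device of 4 linked fermentors on a synthetic must whose glucose was 200 g/L and whose assimilable nitrogen, given as amino acids and ammonium chloride, was 100 mg/L. The cells had used up that nitrogen by the third fermentor. Ammonium or valine was then fed into it, adding 100 mg/L nitrogen, and cells were collected at the new steady state at intervals of 24 h. Another 4 samples came from that fermentor before any addition, with 164 g/L residual glucose, and are quoted beside the 2 supplements. The residual glucose under each supplement is not given in the sources used here. The ammonium, valine and no-addition samples were each successive samplings of a running culture, so supplement and run cannot be told apart. The p-values measure the spread between samplings, in an estimate shared with 4 batch-culture samples of the same strain. A value is a log2 probe intensity averaged per gene, and cells with less of an RNA cannot be told apart from fewer cells that carry it.

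Ammonium is taken up by the Mep permeases and is joined to 2-oxoglutarate by the glutamate dehydrogenase Gdh1, and from glutamate nitrogen passes on to glutamine and to the amino acids. A preferred source of this kind is known to hold down genes for the use of poorer ones through the GATA factors Gln3, Gat1, Dal80 and Gzf3, which is called nitrogen catabolite repression. Valine enters instead through amino acid permeases and gives up its amino group to 2-oxoglutarate in a transamination by Bat1 or Bat2. The glutamate so formed releases ammonium through the NAD-linked dehydrogenase Gdh2. The carbon skeleton left over is decarboxylated and reduced to isobutanol or oxidised to isobutyric acid, the Ehrlich pathway. Amino acids outside the cell are also sensed by the Ssy1-Ptr3-Ssy5 (SPS) complex, which switches on a set of permease genes through the factors Stp1 and Stp2.

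Of 6248 genes and unnamed probes tested, 1023 differed between the supplements at an adjusted p below 0.05, or 16.4% (limma with Benjamini-Hochberg adjustment over all of them). With ammonium, 474 (7.59%) were higher and 549 (8.79%) were lower than with valine. Most differences were small: the median size among those called was 0.33 on the log2 scale, and 28 were at least 2-fold, of which 23 were lower with ammonium. The samples of the 2 groups did not overlap for 1002 of the called genes and probes, against 2144 (34.3%) of all tested. Each supplement lay much farther from the starved cells: 67.6% of genes and probes were called between ammonium and no addition, and 67.9% between valine and no addition. These last comparisons share the no-addition samples.

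The SD of the gene-by-gene difference between samples was 0.11 to 0.22 within ammonium, 0.11 to 0.19 within valine and 0.24 to 0.33 between the groups. The 2 arrays of ammonium 3 differed with an SD of 0.17. Ammonium 2 and valine 3 each stood apart from the other samples of their own group. Each was also the nearest of its group to the mean of the starved cells. The SD of that difference was 0.68 for ammonium 2 against 0.78 and 0.79, and 0.71 for valine 3 against 0.74 and 0.74. The arrays lay on 2 slides, with valine 1 and 2 on slide 1, valine 3, ammonium 1 and ammonium 2 on slide 2, and ammonium 3 on both. With slide as a block 697 genes and probes were called, and the count was 664 without valine 1 and 501 without valine 2. A core of 366 genes and probes, 238 of them lower with ammonium, was called in each alternative fit except the comparisons inside a single slide. The dimmest 25% of genes and probes could not enter this core, because an alternative fit left them out. Haploid mating genes, which a diploid does not use, were low: 8 of 10 stayed below 7 in all 6 samples, on arrays whose values ran from 5.5 to 15.96. Of 8 sporulation markers 6 did so. From each kind 1 marker was called, where the share called over all genes and probes was 16.4%.

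**Figure D1:**
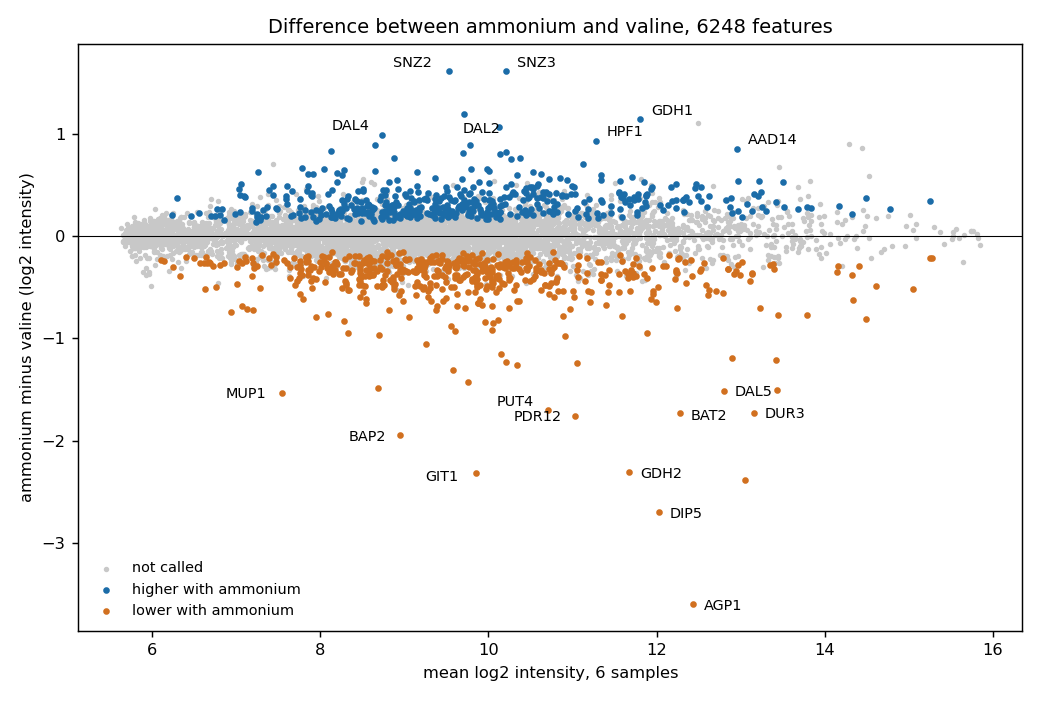
Difference between ammonium and valine (vertical, log2 intensity) against the mean of the 6 samples (horizontal, log2 intensity) for 6248 genes and unnamed probes. Grey points were not called, blue points were higher and orange points lower with ammonium; the differences of at least 2-fold lie mostly below 0, down to AGP1 at -3.60.

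Of 21 amino acid permease genes, 11 were lower with ammonium, 1 was higher and 9 were not called, with a median difference of -0.46 against 0.01 for all genes. Over all genes and probes 8.79% were lower. With the 6 samples fitted alone, 8 of the 21 were lower. The 9 targets of the SPS sensor share members such as AGP1, DIP5 and BAP2 with that list. Of these 9, 7 were lower and none was higher, with a median of -0.70. That count was 7 again with any of the 6 samples left out.

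AGP1, a broad-range permease for neutral amino acids, showed the largest difference of any gene. It read 10.75, 10.50 and 10.63 in ammonium 1 to 3, and 14.20, 14.33 and 14.16 in valine 1 to 3. The ammonium samples lay close to the starved cells, at 10.48 ± 0.15 (SD, n = 4), and all valine samples lay far above both. The difference was -3.60 ± 0.14 (SE), 12.1-fold lower with ammonium, with an adjusted p of 1.37e-09 in limma. DIP5, the permease for glutamate and aspartate, read 10.67, 10.67 and 10.69 with ammonium against 13.47, 13.36 and 13.31 with valine, a 6.52-fold difference (adjusted p = 1.04e-07, limma). Unlike AGP1, it was also 0.82 above no addition with ammonium (adjusted p = 0.000189).

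BAP2, which carries leucine, isoleucine and valine, read 8.04, 7.60 and 8.28 with ammonium and 9.87, 9.91 and 9.98 with valine. It was 3.87-fold lower with ammonium (-1.95 ± 0.12 SE, adjusted p = 1.04e-07, limma), and starved cells lay at 7.44 ± 0.01 (SD, n = 4), below every supplemented sample. Its relative BAP3 differed less, at 6.84, 6.61 and 6.88 against 7.17, 7.28 and 7.29. The ammonium values of BAP3 lay near the dim end of the arrays, which limits the difference that can be read. MUP1, the high-affinity methionine permease, read 6.79, 6.76 and 6.80 with ammonium, near the dim end of the arrays, and 8.11, 8.29 and 8.53 with valine. The tryptophan permease gene TAT2 differed by -0.68 and PTR2, for di- and tripeptides, by -0.70. PTR2 stands apart from the other SPS targets in its level, 12.88 ± 0.09 with ammonium, 13.58 ± 0.08 with valine (SD, n = 3) and 13.95 ± 0.05 without addition (n = 4), so that both supplements lay below the starved cells. The 2 targets not called were GNP1 (-0.06) and TAT1 (0.08), both below 7 in all 6 samples.

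Outside the SPS set, PUT4, for proline, read 9.66, 10.81 and 9.08 with ammonium and 11.46, 11.62 and 11.59 with valine, and starved cells lay at 13.65 ± 0.08 (SD, n = 4). It was 3.26-fold lower with ammonium (adjusted p = 0.00111, limma), and ammonium 2 was the highest of its group. GAP1, the general amino acid permease, read 13.81, 14.45 and 13.80 against 14.50, 14.62 and 14.81. Its difference of -0.62 ± 0.14 (SE, adjusted p = 0.00758, limma) did not pass with the 6 samples fitted alone (adjusted p = 0.0577). CAN1, the arginine permease, followed at -0.46 ± 0.11 (adjusted p = 0.0122, limma). That call ended without ammonium 1 (adjusted p = 0.0504), without ammonium 3 (adjusted p = 0.0587) or with the 6 samples fitted alone (adjusted p = 0.0568). MUP3 (-0.67, and -0.42 without ammonium 2), a low-affinity methionine permease, and SAM3 (-0.44), for S-adenosylmethionine, were lower with ammonium as well, and both stood above the starved level with either supplement. MUP3 was not called with the 6 samples fitted alone (adjusted p = 0.0659, limma).

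HIP1, the histidine permease, was the single one of the 21 amino acid permease genes higher with ammonium, at 9.82, 9.56 and 9.81 against 9.28, 9.29 and 9.29 (0.44 ± 0.10 SE, adjusted p = 0.0109, limma). LYP1, for lysine, read 11.13 ± 0.13 with ammonium and 11.12 ± 0.07 with valine (SD, n = 3). UGA4, for GABA, read 8.05, 9.97 and 7.84 against 8.95, 9.20 and 9.24 and was not called (adjusted p = 0.386), but was with ammonium 2 left out (adjusted p = 1.82e-06). AGP2, AGP3, ALP1, MMP1 and SSY1, the last of which encodes the sensor, were not called, with differences between -0.29 and 0.14.

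**Figure D2:**
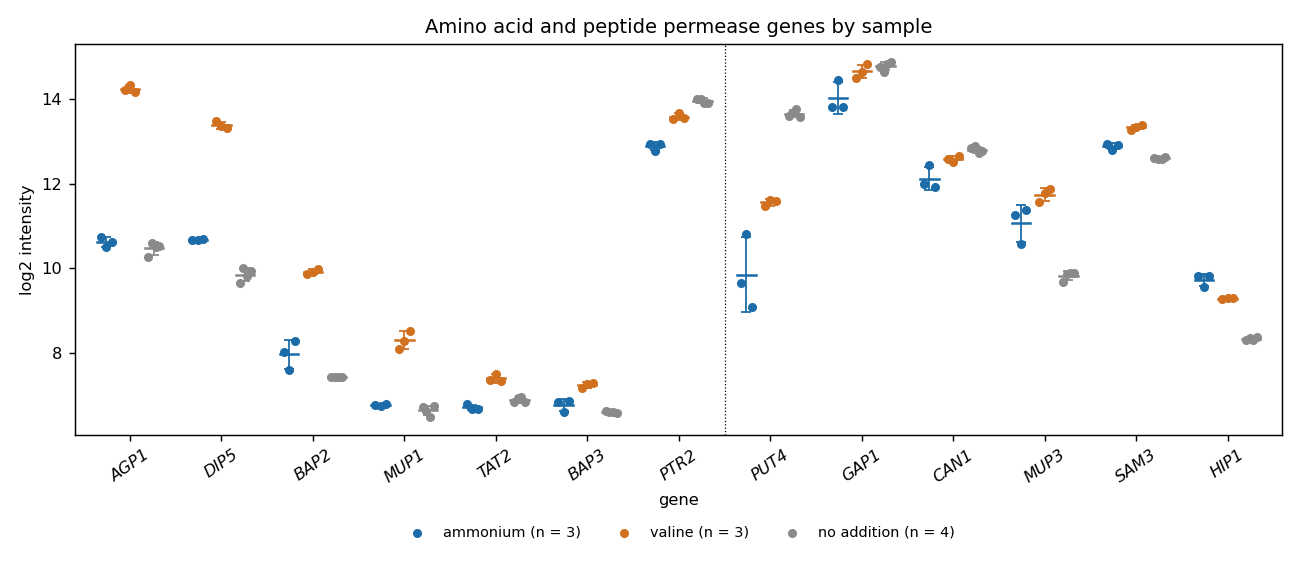
Log2 intensity (vertical) of 13 permease genes in each ammonium, valine and no-addition sample; points are samples, bars are the mean and SD, and the dotted line parts SPS sensor targets (left) from other permeases. AGP1, DIP5, BAP2 and MUP1 are separated by more than 1 unit between ammonium and valine, and PUT4 shows the wide spread of its ammonium samples.

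Transporters of peptides and of the vacuole were lower with ammonium for 8 of 13 and higher for none (median -0.23). Over all genes and probes 8.79% were lower. DAL5, described below, is counted both here and among the allantoin and urea genes. OPT2, of the oligopeptide transporter family, read 12.69, 12.95 and 12.82 with ammonium and 14.09, 13.97 and 14.01 with valine. Starved cells lay between, at 13.61 ± 0.06 (SD, n = 4), so OPT2 fell by 0.79 with ammonium and rose by 0.42 with valine, both past the threshold (adjusted p = 1.05e-07 and 6.72e-05, limma). VBA1, a vacuolar permease for basic amino acids, also lay on either side of the starved level, at 11.41 ± 0.05 and 12.36 ± 0.05 (SD, n = 3) around 12.04 ± 0.13 (n = 4). OPT1, another oligopeptide transporter, differed by -0.78 and lay above the starved level with both. The smallest of these calls, AVT1 and AVT7 for vacuolar amino acid transport at -0.23 each, ended once slide was a block (adjusted p = 0.0723 and 0.0581). AVT1 also ended without ammonium 1, ammonium 3, valine 1 or valine 2 (adjusted p = 0.106 to 0.124), and AVT7 without ammonium 2, ammonium 3 or valine 2 (adjusted p = 0.0638 to 0.0775).

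At the glutamate node the 2 dehydrogenases moved in opposite directions. GDH1, the NADPH-linked enzyme that assimilates ammonium, read 12.52, 12.07 and 12.55 with ammonium and 11.30, 11.26 and 11.12 with valine, all above the starved cells at 10.16 ± 0.09 (SD, n = 4). It was 2.22-fold higher with ammonium (1.15 ± 0.11 SE, adjusted p = 1.29e-05, limma). GDH2, which breaks glutamate down, read 10.53, 10.53 and 10.49 with ammonium against 12.60, 13.04 and 12.86 with valine. This was a 4.97-fold difference with ammonium the lower (-2.31 ± 0.09 SE, adjusted p = 1.37e-09, limma). Against no addition GDH2 fell by 2.01 with ammonium and rose by 0.30 with valine (adjusted p = 8e-11 and 0.00595).

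The other enzymes of glutamate differed less. GLN1, glutamine synthetase, was lower with ammonium, at 14.94, 14.66 and 14.75 against 15.46, 15.26 and 15.21 (-0.52 ± 0.11 SE, adjusted p = 0.00586, limma). The alanine transaminase genes ALT1 (-0.70) and ALT2 (-0.35) were lower too. GDH3, which encodes a second NADPH-linked dehydrogenase, read 8.24 ± 0.14 and 8.25 ± 0.09 (SD, n = 3) and fell by 1.64 from the starved level with ammonium and fell by 1.63 with valine. GLT1, glutamate synthase, differed by 0.17 (adjusted p = 0.123). Of the 11 genes of this group, 1 was higher and 4 were lower with ammonium. These shares were 9.09% and 36.4%, against 7.59% and 8.79% over all genes and probes.

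BAT2, the cytosolic branched-chain transaminase, which starts the breakdown of valine, was among the most different enzymes. It read 11.26, 11.76 and 11.22 with ammonium and 13.13, 13.25 and 13.06 with valine, a 3.31-fold difference (-1.73 ± 0.11 SE, adjusted p = 2.13e-07, limma). The ammonium samples were 0.17 from the starved cells (adjusted p = 0.174), and the valine samples 1.90 above them. BAT1, the mitochondrial transaminase of synthesis, rose with both supplements, by 1.83 and 2.13 over no addition. It differed between them by -0.29 ± 0.07 (SE, adjusted p = 0.0154, limma). That call was lost without ammonium 2 (adjusted p = 0.062), without valine 1 (adjusted p = 0.053) or with ammonium 3 taken from slide 2 alone (adjusted p = 0.149).

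Synthesis of the branched-chain amino acids separated the supplements far less. Of 13 genes, 4 were lower with ammonium (30.8%, against 8.79% over all genes and probes) and none was higher (median -0.07). Beside BAT2 these were BAT1, ILV2 (-0.36), which makes acetolactate, and LEU4 (-0.28), for the first step of leucine synthesis. Without ammonium 2 or valine 1 the count was 1, BAT2. It was 2 without ammonium 3 or valine 2, and also 2 with a block for slide, which is not balanced between the groups. ILV5, the reductoisomerase gene, read 13.00, 12.19 and 13.00 against 12.75, 12.93 and 12.61, with ammonium 2 the lowest of the 6. LEU1, isopropylmalate isomerase, differed by -0.07 and the regulator LEU3 by 0.04, neither called.

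Past the transaminases, 7 of 23 Ehrlich pathway genes were lower with ammonium (30.4%, against 8.79% over all genes and probes) and none was higher. Both transaminase genes are counted among the 7. PDR12, a plasma membrane pump that exports weak acids, read 10.19, 9.88 and 10.38 with ammonium and 11.98, 11.81 and 11.94 with valine (3.39-fold, adjusted p = 2.07e-07, limma). The starved cells lay between at 10.87 ± 0.09 (SD, n = 4), and PDR12 fell by 0.72 with ammonium and rose by 1.04 with valine (adjusted p = 2.7e-05 and 6.22e-07). WAR1, the factor known to control PDR12, read 8.42 ± 0.05 and 8.43 ± 0.14 (SD, n = 3). PDC6, a minor pyruvate decarboxylase, differed by -0.98 and the aldehyde dehydrogenase gene ALD2 by -0.59, and both were below the starved level with either supplement. ADH7, a medium-chain alcohol dehydrogenase, read 8.10, 8.29 and 8.27 with ammonium, close to 8.26 ± 0.02 without addition (SD, n = 4), and 9.45, 9.15 and 8.96 with valine. ADH3, the mitochondrial alcohol dehydrogenase, differed by -0.32, a call that ended without valine 2 (adjusted p = 0.0672).

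ARO10, a decarboxylase of this pathway, read 7.48, 7.49 and 7.61 with ammonium and 7.49, 7.24 and 6.92 with valine and was not called (adjusted p = 0.0604, limma), but was with slide as a block (adjusted p = 0.0267) or without valine 1 (adjusted p = 0.00764). PDC5, another decarboxylase, read 15.07 ± 0.14 and 15.09 ± 0.02 (SD, n = 3) near the top of the arrays' range. None of 8 genes for aroma esters was called in limma, and 0 had an unadjusted p under 0.05, where the share over all genes and probes was 30.2%. ATF1, which makes acetate esters, read 9.92 ± 0.06 and 9.93 ± 0.06.

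**Figure D3:**
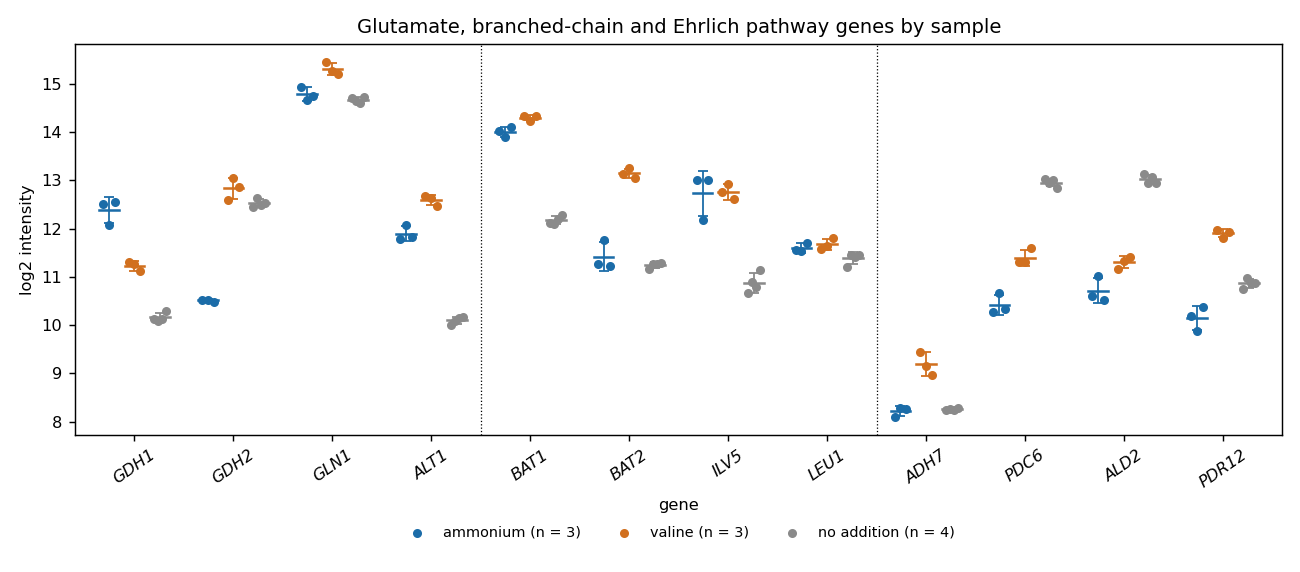
Log2 intensity (vertical) of 12 genes of glutamate, branched-chain amino acids and the Ehrlich pathway in each sample; points are samples, bars are the mean and SD, and dotted lines part the 3 groups of genes. GDH2, BAT2 and PDR12 are higher in all valine samples, GDH1 is higher in all ammonium samples, and ILV5 and LEU1 overlap.

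None of 10 genes for ammonium permeases and the regulators of nitrogen catabolite repression was called in limma, where the background is 16.4%. At an unadjusted p under 0.05 there were 4 of the 10, where the share over all genes and probes was 30.2%. MEP2, the high-affinity ammonium permease, read 13.99, 13.74 and 13.67 with ammonium and 13.66, 13.87 and 13.71 with valine, and both lay below the starved cells at 14.42 ± 0.05 (SD, n = 4). DAL80, a GATA repressor that is itself repressed by good nitrogen sources, read 11.26, 11.64 and 11.17 against 11.70, 11.58 and 11.82 (-0.34 ± 0.12 SE, adjusted p = 0.0669, limma). The activator gene GAT1 differed by -0.31 (adjusted p = 0.0842) and the permease gene MEP3 by 0.27 (adjusted p = 0.0567). Ammonium 2 was the highest ammonium sample for both DAL80 and GAT1. Without it each was called, with adjusted p-values of 0.00888 and 0.00652. MEP1, a low-affinity ammonium permease, read 8.70, 9.62 and 8.53 against 8.44, 8.60 and 8.61, and was called only without ammonium 3 (adjusted p = 0.0436). GLN3 (0.03), GZF3 (-0.05) and URE2 (-0.10), which holds Gln3 in the cytosol, were not called.

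The genes for using allantoin and urea did not move together. Of 11, 4 were higher and 2 were lower with ammonium (36.4% and 18.2%, against 7.59% and 8.79% over all genes and probes). DUR3, the urea permease, read 11.82, 13.20 and 11.86 with ammonium and 13.93, 14.08 and 14.04 with valine (3.31-fold lower, adjusted p = 0.000665, limma). DAL5, the permease for allantoate and dipeptides, read 12, 12.48 and 11.67 against 13.71, 13.68 and 13.28 (2.84-fold lower, adjusted p = 7.08e-05). With valine, DAL5 was 0.05 from the starved cells and DUR3 -0.13 (adjusted p = 0.796 and 0.647), while with ammonium DAL5 fell by 1.46 and DUR3 fell by 1.86.

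The genes higher with ammonium all come from a single cluster, where DAL1, DAL4, DAL2, DCG1, DAL7 and DAL3 follow each other on chromosome IX in the RefSeq annotation of the laboratory strain S288C. DAL4, the allantoin permease, read 8.72, 10.23 and 8.73 with ammonium and 8.21, 8.18 and 8.32 with valine, far under the starved cells at 12.63 ± 0.16 (SD, n = 4). Its difference of 0.99 ± 0.28 (SE, adjusted p = 0.0291, limma) ended under the slide block (adjusted p = 0.0699), without valine 1 (adjusted p = 0.0798), without valine 2 (adjusted p = 0.0977) or with the 6 samples fitted alone (adjusted p = 0.121). Without ammonium 2 the difference was 0.48 (adjusted p = 0.0051). DAL2, allantoicase, read 9.93, 10.87 and 9.89 against 9.26, 9.34 and 9.41 (0.89 ± 0.18 SE, adjusted p = 0.00466), and starved cells lay at 11.56 ± 0.05 (SD, n = 4). DAL7, a malate synthase, was 0.63 higher and DAL3, for ureidoglycolate, 0.43 higher. Without ammonium 2, DAL2 differed by 0.57 and DAL3 by 0.26, both still called. With the 6 samples fitted alone, DAL3 was not called (adjusted p = 0.0722, limma). DAL1 (-0.17), allantoinase, and DCG1 (-0.03) were not called. DAL1 was called, as lower with ammonium, without ammonium 2 (adjusted p = 0.00498). Ammonium 2 was the highest ammonium sample for all 6 genes of the cluster.

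Valine left the cluster's DAL4, DAL2 and DAL7 lower than ammonium did while leaving DAL5 and DUR3 higher. The arginine degradation genes shared the direction of the cluster: CAR1, arginase, was 0.53 higher with ammonium and CAR2, ornithine transaminase, 0.42 higher. CAR1 was no longer called under the slide block (adjusted p = 0.0522) or without ammonium 2, valine 1 or valine 2 (adjusted p = 0.067 to 0.0765). CAR2 was not called with the 6 samples fitted alone (adjusted p = 0.0503, limma). PUT2, for proline breakdown, differed by -0.27 and lost its call without ammonium 3 or valine 2 (adjusted p = 0.0506 and 0.0646). PUT1, the first enzyme of that route, read 13.65 ± 0.16 with ammonium and 13.75 ± 0.18 with valine (SD, n = 3).

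**Figure D4:**
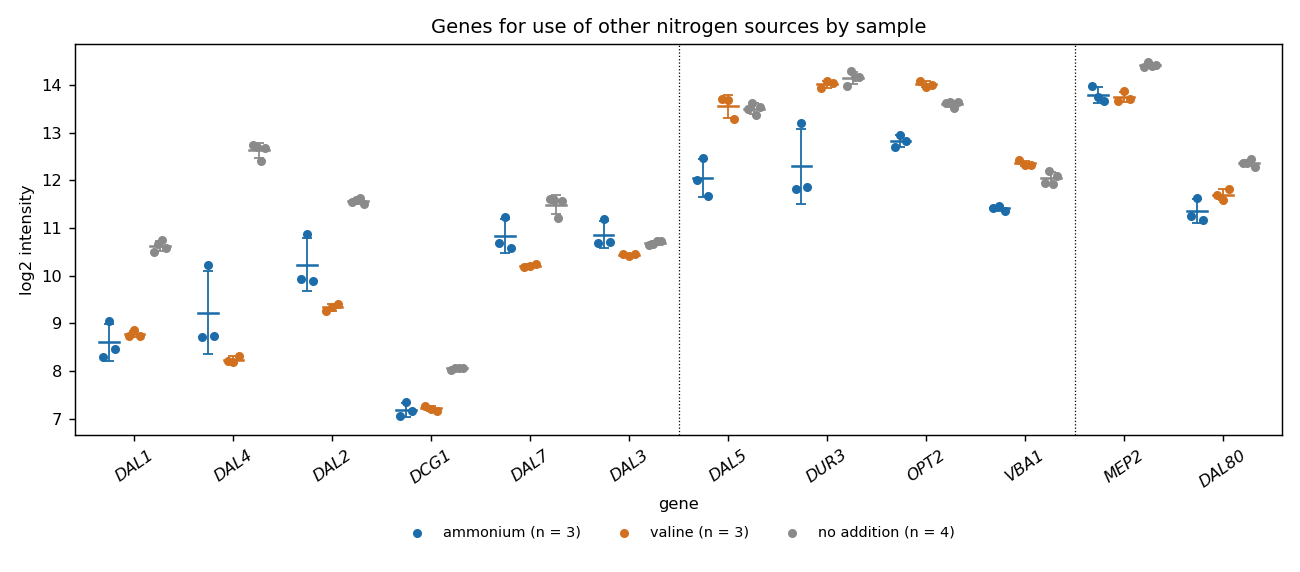
Log2 intensity (vertical) of 12 genes for other nitrogen sources in each sample; points are samples, bars are the mean and SD, and dotted lines part the DAL cluster in its chromosomal order, 4 transporters outside it, and a permease with a repressor. DAL4, DAL2, DAL7 and DAL3 are higher with ammonium, DAL5, DUR3, OPT2 and VBA1 are lower, and MEP2 and DAL80 overlap.

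Arginine synthesis was lower with ammonium for 6 of 8 genes (median -0.46), or 75% against 8.79% over all genes and probes. ARG1, argininosuccinate synthase, read 14.26, 13.94 and 14.09 with ammonium and 14.83, 14.93 and 14.95 with valine (-0.81 ± 0.10 SE, adjusted p = 0.000118, limma), and both supplements lay above the starved cells at 12.68 ± 0.14 (SD, n = 4). CPA1, a subunit of carbamoyl phosphate synthetase, differed by -0.54. ARG3, ornithine transcarbamylase, read 11.50, 10.59 and 11.50 against 11.90, 11.91 and 12.13, with ammonium 2 the lowest, and its difference of -0.78 was -0.48 without that sample. With the 6 samples fitted alone, ARG3 was not called (adjusted p = 0.0652, limma). ARG8 (-0.82), an aminotransferase of ornithine synthesis, lost its call without ammonium 2, ammonium 3, valine 1 or valine 2 (adjusted p = 0.0536 to 0.137). The number of genes called was 4 without ammonium 2, without valine 1 or with slide as a block, and 3 with the 6 samples fitted alone. GCN4, the activator of amino acid synthesis genes, differed by -0.28 (adjusted p = 0.0351), a call lost without ammonium 1, ammonium 2, valine 1, valine 2 or valine 3 (adjusted p = 0.0668 to 0.113), under the slide block (adjusted p = 0.0952) or with ammonium 3 taken from slide 1 alone (adjusted p = 0.135).

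Sulfur amino acid genes were called in 5 of 30 cases, 4 lower and 1 higher with ammonium, a share close to the background of 16.4%. STR3, cystathionine beta-lyase, was the most different of them, at 9.16, 8.54 and 9.05 with ammonium against 10.15, 10.33 and 10.21 with valine (2.48-fold lower, adjusted p = 6.42e-06, limma). IRC7, a related beta-lyase known in wine yeast for the release of volatile thiols, read 12.27, 12.23 and 12.41 against 13.59, 13.68 and 13.21 (2.28-fold lower, adjusted p = 0.000232). Both genes were above no addition with either supplement, STR3 by 1.45 and 2.76, and IRC7 by 1.30 and 2.49.

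Several strong differences lay outside nitrogen and amino acid transport. GIT1, a transporter of glycerophosphoinositol, read 9.20, 8.03 and 8.87 with ammonium and 11.20, 11.16 and 10.68 with valine (4.98-fold lower, adjusted p = 1.32e-05, limma). SPL2 (-0.71), a regulator of phosphate uptake, and PHM6 (-0.74) were also lower, whereas the acid phosphatase genes PHO11 (0.47), PHO5 (0.45) and PHO12 (0.38) were higher with ammonium. PHO11 and PHO12 are near-identical, so that their probes may read each other. PHO12 lost its call without ammonium 3 or valine 2 (adjusted p = 0.0517 and 0.0826). The phosphate regulon held calls in both directions, 4 higher and 3 lower of 17. These shares were 23.5% and 17.6%, against 7.59% and 8.79% over all genes and probes.

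NIT1, a nitrilase, and its neighbour YIL165C, which continues the nitrilase frame in other strains, moved alike. NIT1 read 9.13, 8.78 and 9.21 with ammonium against 10.67, 10.76 and 9.97 with valine (2.69-fold lower, adjusted p = 0.000235, limma), and YIL165C read 9.67, 9.34 and 9.74 against 11.05, 11.04 and 10.37 (2.35-fold lower, adjusted p = 0.000499). Valine 3 was the lowest valine sample for both. NRK1, nicotinamide riboside kinase, read 9.67, 9.80 and 9.65 against 10.95, 11.07 and 10.88. It fell by 0.58 from the starved level with ammonium and rose by 0.68 with valine. The uncharacterised YLR257W, named here after its values were seen, read 11.59, 12.35 and 11.64 against 14.37, 14.41 and 13.97 (5.23-fold lower, adjusted p = 2.36e-07). AMD2, a putative amidase, was 2.22-fold lower with ammonium and the kinase gene YGK3 2.07-fold lower, and the valine samples of both differed from no addition by 0.14 and -0.11 (adjusted p = 0.168 and 0.55).

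On the higher side, the thiamine and vitamin B6 genes stood first by size. SNZ2 read 10.34, 10.22 and 10.48 with ammonium and 8.89, 8.77 and 8.52 with valine, and SNZ3 read 11.06, 10.86 and 11.15 against 9.59, 9.37 and 9.23. Both encode subunits of pyridoxal phosphate synthase and are close copies whose probes may read each other. Each was 3.08-fold higher with ammonium (adjusted p = 3.37e-07 and 8.09e-07, limma), and valine samples were in turn above the starved cells at 7.01 ± 0.17 and 7.58 ± 0.21 (SD, n = 4). Their divergent partners SNO2 (0.67) and SNO3 (0.63) were higher as well, and SNZ1, the copy used mainly in stationary phase, differed by 0.24, a call that ended on leaving out any 1 of the 6 samples but ammonium 2 (adjusted p = 0.0571 to 0.181).

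Of 26 genes of this group, 15 were higher (57.7%, against 7.59% over all genes and probes) and none was lower (median 0.50). THI74 was 0.82 and THI72, a thiamine transporter, 0.71 higher with ammonium, and THI2, an activator of thiamine genes, 0.56 higher. THI4, for the thiazole part of thiamine, read 15.80 ± 0.06 and 15.88 ± 0.05 (SD, n = 3) at the top of the arrays' range. THI5, for the pyrimidine part, read 14.74, 14.97 and 14.91 against 14.41, 13.93 and 13.71 and was not called (adjusted p = 0.29, limma), but was when the no-addition sample 4, at 10.80, was left out of the shared spread (adjusted p = 0.00197). The count was 9 without ammonium 3 and 10 without valine 2.

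PAU genes are a family of near-identical cell wall mannoprotein genes known from wine fermentation. They were higher with ammonium for 19 of 24 members (79.2%, against 7.59% over all genes and probes) and lower for none (median 0.39). PAU5 read 10.75, 10.73 and 10.81 with ammonium and 10.06, 9.93 and 9.98 with valine (1.71-fold, adjusted p = 2.65e-05, limma). Ammonium samples were 0.62 above the starved cells for PAU5 and valine samples -0.16 from them (adjusted p = 4.2e-06 and 0.0775). Since probes for this family may read several members, the 19 calls are not 19 separate readings. The count was 14 with slide as a block and 10 without valine 2.

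ROX1 and MOT3, which encode repressors of hypoxic genes, were both higher with ammonium. MOT3 read 10.36, 10.34 and 9.63 against 9.16, 9.29 and 9.42, and ROX1 read 10.83, 10.80 and 10.31 against 9.75, 9.91 and 10.01. For each the value of ammonium 3 was the lowest ammonium sample and still above all valine samples. ROX1 was not called under the slide block (adjusted p = 0.0531) or without ammonium 1, ammonium 2, valine 1 or valine 2 (adjusted p = 0.0531 to 0.0657). HPF1, a mannoprotein known to reduce haze in wine, was 1.90-fold higher with ammonium, at 11.81, 11.60 and 11.81 against 11.06, 11.07 and 10.31. AAD14, a putative aryl-alcohol dehydrogenase, was 1.81-fold higher and SRO9, an RNA-binding protein, 1.70-fold higher. ECM13 differed by 0.80 (adjusted p = 0.0475), which failed under the slide block and on leaving out ammonium 1, ammonium 2 or any valine sample (adjusted p = 0.0849 to 0.179).

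Genes of the translation apparatus showed small differences in many members. Of 134 ribosomal protein genes, 45 were higher with ammonium and none was lower, a share above the background of 7.59%, with a median difference of 0.20. The median was 0.31 within slide 1 (ammonium 3 against valine 1 and 2) and 0.13 within slide 2 (ammonium 1, 2 and 3 against valine 3 alone). The 2 medians thus rest on different valine samples. The count of 45 depended on single samples and fell to 16 without valine 1 or valine 2, 24 without ammonium 3 and 28 without ammonium 1, and to 27 with slide as a block. RPL7A, of the large subunit, read 10.93, 10.91 and 10.97 against 10.23, 10.19 and 10.56, a call that ended without ammonium 1, ammonium 3, valine 1 or valine 2 (adjusted p = 0.0538 to 0.102). Mitochondrial ribosome genes were higher for 22 of 66 and lower for 1, MRP51 (median 0.18), whose call ended without ammonium 1 or valine 3 (adjusted p = 0.0699 and 0.057). That count fell to 10 without ammonium 2 or ammonium 3, 11 without valine 1 and 7 without valine 2. Ribosome biogenesis had 11 of 123 members higher, near the background of 7.59%, and 4 lower, a share under the background of 8.79%. Its higher count was 7 without ammonium 2, 5 without ammonium 3 or valine 1, and 2 without valine 2.

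Autophagy and vacuolar protease genes were lower with ammonium for 8 of 26 (30.8%, against 8.79% over all genes and probes) and higher for none. PRB1, vacuolar protease B, read 10.67, 11.09 and 10.92 with ammonium and 11.70, 11.43 and 11.47 with valine (-0.64 ± 0.13 SE, adjusted p = 0.00413, limma). ATG7, an activating enzyme of autophagy, differed by -0.49 and PEP4, vacuolar protease A, by -0.37, the latter not called without ammonium 1, ammonium 3 or valine 1 (adjusted p = 0.0515 to 0.08). The count was 4 without ammonium 3 or with slide as a block, and 5 without ammonium 1, valine 1 or valine 2.

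Stress genes were called in 6 of 41 cases, 3 each way, near the background. The 3 higher were HSP26, HSP104 and SSA4, for chaperones, and none of them was called without ammonium 2, valine 1 or valine 2. GRE1 read 9.59, 9.64 and 9.49 with ammonium and 10.33, 10.36 and 10.80 with valine, and HSP12, a membrane-protecting heat shock protein, read 11.62, 11.79 and 11.60 against 12.30, 12.34 and 12.28. Both were lower with ammonium (adjusted p = 0.000326 and 0.000938, limma) and were far below the starved cells with either supplement, at 13.34 ± 0.13 and 14.57 ± 0.08 (SD, n = 4). MSN4, a stress activator, differed by -0.40. HXT5, a hexose transporter of slow growth, read 6.83, 6.96 and 6.72 with ammonium against 7.30, 7.39 and 8.00 with valine, and 12.47 ± 0.18 without addition (SD, n = 4). HXT1, the transporter for high glucose, differed by -0.49 (adjusted p = 0.000502). These 2 were the only genes called of 22 for hexose transport and glucose sensing (median 0.02). That share lower with ammonium, 9.09%, was near the 8.79% over all genes and probes.

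**Figure D5:**
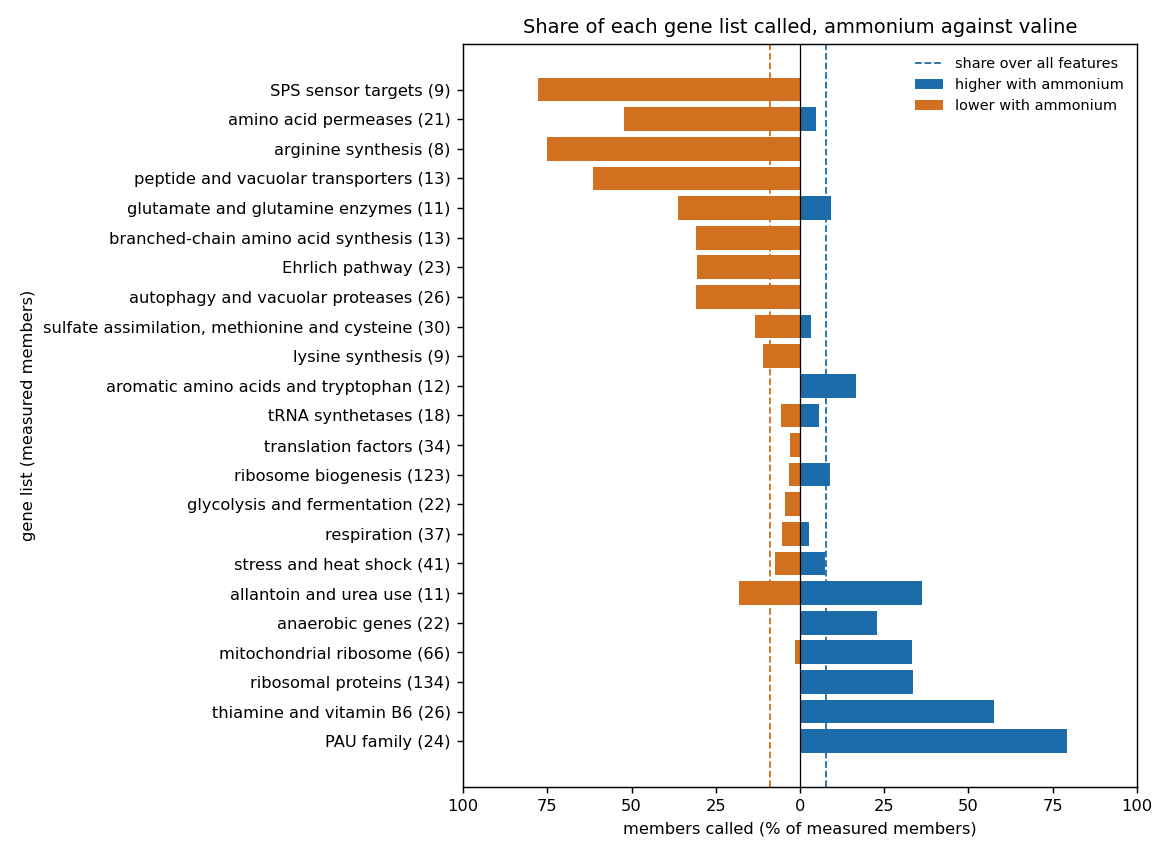
Share of the measured members of 23 gene lists called higher (blue, to the right) or lower (orange, to the left) with ammonium than with valine, in percent, with the number of measured members in parentheses. Some genes are counted in several lists. Dashed lines mark the shares over all genes and probes, 7.59% higher and 8.79% lower; SPS sensor targets and arginine synthesis reach farthest left, the PAU family and thiamine and vitamin B6 farthest right.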

How the data were processed

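RNA was read on 1-colour Cy3 oligonucleotide arrays. Values are the deposited log2 intensities, already brought to a common scale by the authors (array medians 9.09 to 9.10) by a method not given in the sources used here; R 2.13.1 and limma are listed as tools, per the submitters' processing notes. No depth applies to arrays, and the number of samples limits precision. Of 6271 probes, 5220 carried 1 gene symbol and 1051 none; probes of a symbol were averaged, giving 6248 features. limma 3.58.1 in R 4.3.3 (lmFit, eBayes) fitted 14 samples in 4 groups with 10 residual degrees of freedom, with the 4 no-addition samples and 4 batch-culture samples of the same strain sharing the estimate of spread, and p-values were adjusted by Benjamini-Hochberg. The script was tested on simulated data. Same-numbered samples deviated with correlations of 0.081, -0.285 and -0.160, so the numbers were not used as pairs.

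Comparison, gene lists and alternatives were chosen with earlier results of these data known. Named genes were drawn from the 12 largest non-overlapping calls in each direction, leading members of 54 lists, a panel and the members of 5 nitrogen lists. Other genes, such as IRC7, YIL165C, YLR257W, AMD2, YGK3, ROX1 and RPL7A and further members of the lists described, were named after their values were seen. Alternatives were slides, normalisation, probe choice, weights, blocks and omitted samples. Promoter motifs were not analysed here.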

Additional observations from a re-analysis of the deposited data

Results flagged for a closer look

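Some genes lay on opposite sides of the starved level under the 2 supplements, with each supplement's own change from no addition and the difference between the supplements all at an adjusted p below 0.05 (limma). GDH2 changed by -2.01 with ammonium and 0.30 with valine (adjusted p of the difference 1.37e-09), and YLR257W by -1.94 and 0.45 (2.36e-07). OPT2 changed by -0.79 and 0.42 (1.04e-07), PDR12 by -0.72 and 1.04 (2.07e-07), VBA1 by -0.63 and 0.32 (4.12e-06) and NRK1 by -0.58 and 0.68 (2.28e-08). Both changes of each gene share the no-addition samples.

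Among the 4 no-addition samples, 1 sample stood apart from the other 3, relative to their range, for 9 of the 119 genes described, where chance alone marks about 1 in 20. Some of these gaps were small in size. In the no-addition sample 4, THI5 read 10.80, PDC5 13.13, SNZ1 9.12 and SNZ2 7.27, each above the others. In sample 3, PRB1 read 12.32, above the others, and DAL7 11.20, below them. In sample 2, SSY1 read 9.50, above the others, and MMP1 6.05, below them. In sample 1, MUP3 read 9.68, below the others.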

How the results depend on the processing

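The count of 1023 calls (474 higher, 549 lower with ammonium) was the least stable result. Fitted on the 6 samples alone, 690 were called, 302 of them higher. In that fit 4 lists instead of 7 had at least 0.5 of their members called one way. With slide as a block 300 were higher. Within slide 1, which sets 1 ammonium sample against 2 valine samples, 38 were called (6 higher, 32 lower) and 0 lists; within slide 2, 228 (55 higher, 173 lower) and 2 lists. Slide 2 sets ammonium 1, 2 and 3 against valine 3 alone. With the replicate block 300 were higher. Same-numbered samples did not deviate together, so this block has no pairing behind it. Array weights, which gave ammonium 3 a weight of 5.74, called 2471 (1286 higher, 1185 lower) and 13 lists. At an adjusted p below 0.01 and at least 2-fold, 28 were called (5 higher, 23 lower). Leaving out 1 sample at a time gave 501 to 1322 calls, 192 to 639 higher and 309 to 683 lower, and 3 to 8 lists; the fewest came without valine 2 and the most without batch sample 1. Leaving out ammonium 2 and valine 3 together, chosen after seeing the data, gave 858. Of the named genes' 5269 single alternatives, 4689 kept their side of the threshold and, where called, their direction, 532 lost the call, 47 gained it and 1 reversed: GCN4 within slide 1, at 0.01. Where no cause is given, the cause was not tested. Signals near the dim end (GNP1, TAT1, and MUP1, BAP3 and HXT5 with ammonium) or the bright end (THI4, PDC5) limit the differences that can be read.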

Other observations

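Genes of phospholipid synthesis were called for 5 of 15 members, 4 of them higher with ammonium (26.7%, against 7.59% over all genes and probes). OPI3, the methyltransferase of phosphatidylcholine synthesis, read 13.39, 13.55 and 13.43 with ammonium and 13.13, 12.96 and 12.99 with valine (0.43 ± 0.07 SE, adjusted p = 0.0012, limma). INO1, which makes inositol phosphate, read 9.87 ± 0.19 with ammonium and 9.46 ± 0.11 with valine (SD, n = 3), and both groups lay above the starved cells at 7.56 ± 0.11 (SD, n = 4). The inositol transporter gene ITR1 was 0.28 higher, and INO4, an activator of these genes, differed by -0.34. Among 27 genes of iron and copper uptake, 5 were higher and 3 lower with ammonium. These shares were 18.5% and 11.1%, against 7.59% and 8.79% over all genes and probes. ARN2, a siderophore transporter, read 8.43, 8.68 and 8.57 against 8.01, 7.88 and 8.00, with starved cells at 7.91 ± 0.07 (SD, n = 4), whereas the copper transporter gene CTR3 differed by -0.32.

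The sample whose labels name both supplements read 10.70 for AGP1, 10.47 for DIP5, 8.45 for BAP2, 12.50 for GDH1, 10.38 for GDH2, 11.16 for BAT2, 9.80 for PDR12 and 10.16 for SNZ2. It entered no fit. The SD of its gene-by-gene difference was 0.20 to 0.23 from the ammonium samples and 0.28 to 0.37 from the valine samples.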
